A study of Mus musculus with 4 samples.

Results

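The 10 transcription factor genes described here steer epidermal fate and were measured in cultured mouse keratinocytes: Trp63, Tfap2a, Tfap2c, Gata3, Klf4, Klf5, Grhl1, Ovol1, Hopx and Cebpa. They were taken by name, as every gene probe on the arrays that carries a listed gene's name. The genes and the lists below were chosen with earlier results of these data known, so shares of all probes beside them are descriptive. The name in the files found 7 of the 10 genes with 13 probes, and the other 3 (Tfap2a, Tfap2c and Hopx, listed as Tcfap2a, Tcfap2c and Hod) were matched through the accession of the probe, with 4 probes. Of the 17 probes, 16 passed the filters, among 35574 probes kept and 27670 gene names in the whole series, and all 10 genes kept at least 1 probe. The brightest kept probe stands for a gene, and the other probes are given beside it.

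Keratinocytes were grown from the epidermis of mice aged P3 of 2 genotypes, 2 mice of each. Casp-8F/–K5-Cre (F/- below) and Casp-8F/+K5-Cre (F/+ below) both carry F, the usual sign of a loxP-flanked allele, at Casp8, the gene of the initiator protease of death receptor signalling. Both also carry K5-Cre, in which the keratin 5 promoter of basal keratinocytes drives the recombinase, so the F/+ cells are no Cre-free control. The cells gave RNA at 2 passages, 1 (early) and 3 (late), for 8 RNA samples on 4 arrays. Each array held F/- RNA in Cy3 and F/+ RNA in Cy5 of 1 pair, with 2 pairs at each passage. For the F/+ RNA of the late arrays 1 label names passage 1, against the title, description and passage entry, so the F/+ passage changes rest on those 3 labels. No dyes were exchanged, so genotype and dye cannot be told apart in the ratio of one genotype over the other, while a passage is compared within 1 dye. That a pair number stands for the same mice at both passages was read from the design text, which gives 2 mice per genotype, and no label states it array by array. The p-values measure only the spread between these few samples.

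The epidermis renews itself from a basal layer whose cells divide, leave the basement membrane, stop cycling and build the cornified barrier. p63, encoded by Trp63, defines the stratified epithelial lineage and is highest in basal cells, and the AP-2 factors and GATA3 act with it in epidermal development. KLF4, GRHL1, OVOL1, HOPX and C/EBPα are known for the later steps: barrier formation, desmosomal cadherins, growth arrest of committed cells, late differentiation and exit from the cell cycle.

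For the labelled cell type, 8 of 8 keratinocyte markers, such as Krt5 and Krt14, exceeded background clearly on all 4 arrays in Cy3 or Cy5. Over the arrays, 75.8% to 85.4% of gene spots did so in Cy3 and 80.6% to 87.9% in Cy5, 0 spots were saturated, and the 2 arrays per passage limit the precision. Casp8 itself gave log2 F/- over F/+ of 0.42 and 0.18 at passage 1 and of 0.47 and -0.20 at passage 3. Where its probe lies against the deleted part is not known here, so these ratios check nothing. The 10 factors were above background on 4 of 4 arrays. Markers of other cells were measured too: 10 of 10 fibroblast, 10 of 10 leukocyte, 8 of 8 melanocyte and 5 of 7 endothelial markers were above background on all 4 arrays. Being above background thus does not tell cell types apart here.

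RefSeq's table of promoter windows (build GRCm38.p6) held 9 windows for 6 of the 10 genes. Those of 3 genes that fell with passage in both genotypes are printed, since the values below turn on these genes. Each is the stretch before the annotated start, 250 bases for Hopx and Klf4 and 195 bases for Grhl1, of which only the part outside the annotated gene is shown. Capitals mark the letters GCCNNNGGC, to which AP-2 factors, the products of Tfap2a and Tfap2c among them, are known to bind.
Hopx chr5:77115124-77115373 (minus strand): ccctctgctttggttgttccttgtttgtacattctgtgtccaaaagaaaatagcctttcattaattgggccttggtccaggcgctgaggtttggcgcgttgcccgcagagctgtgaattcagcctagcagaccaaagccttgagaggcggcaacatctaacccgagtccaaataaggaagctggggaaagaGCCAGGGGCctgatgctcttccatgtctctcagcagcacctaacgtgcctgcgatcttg
Grhl1 chr12:24572037-24572231 (plus strand): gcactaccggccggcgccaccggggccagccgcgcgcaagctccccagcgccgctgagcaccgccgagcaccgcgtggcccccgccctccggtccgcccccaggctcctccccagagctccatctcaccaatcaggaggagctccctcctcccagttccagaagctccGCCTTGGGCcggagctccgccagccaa
Klf4 chr4:55532476-55532725 (minus strand): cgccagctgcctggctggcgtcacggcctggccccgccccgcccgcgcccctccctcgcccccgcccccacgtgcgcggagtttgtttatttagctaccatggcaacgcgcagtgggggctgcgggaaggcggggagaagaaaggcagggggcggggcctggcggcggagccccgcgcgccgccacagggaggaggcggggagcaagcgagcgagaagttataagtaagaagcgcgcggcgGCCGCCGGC
Each of the 3 stretches held 1 match of these letters, which read alike on both strands and overlapped no other motif searched. Among all 32851 RefSeq windows of 250 bases, 13.7% held a match, against 5 of the 9 windows of these genes, which belong to 4 of the 6. The other letters searched on both strands were CACCC for KLF factors (52% of all windows), AACCGGTT for GRHL (0.116%), TTGCNNAA for C/EBP (9.56%) and AGATAA for GATA (9.99%). None of them occurred in the 3 printed stretches. Over the 9 windows, CACCC occurred in windows of Cebpa, Gata3, Grhl1 and Tfap2a, and AACCGGTT, TTGCNNAA and AGATAA in none. A match of letters is a description and does not show that a factor binds there.

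From passage 1 to passage 3, Hopx, Ovol1, Grhl1 and Klf4 fell in both genotypes, by 3.20-fold to 33.2-fold, and Trp63 did not pass the test in either. In F/+ cells these 4 of the 10 genes fell and 0 rose, against 2.31% of all probes that fell and 3.35% that rose. The genes were chosen with earlier results known, so this comparison describes them and tests nothing. F/- cells showed 5 falling genes, the same 4 and Klf5, and 0 rising, against 2.11% and 2.98% of all probes. The 4 shared genes are 4 of the 4 called in F/+ and 4 of the 5 called in F/-, and 1.6% of all probes fell in both, though both genotypes lay on the same arrays. Calls are at an adjusted p under 0.05 from limma's separate-channel fit, with Benjamini-Hochberg adjustment over 35475 probes. That fit does not pair the samples, so its p-values are not set against the SD of the pairs printed below. Over the 10 genes the median log2 change was -1.09 in F/+ and -1.25 in F/-, beside 0.03 and 0.02 over all probes. In bulk RNA, fewer cells of a type and less RNA per cell cannot be told apart.

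**Figure D1:**
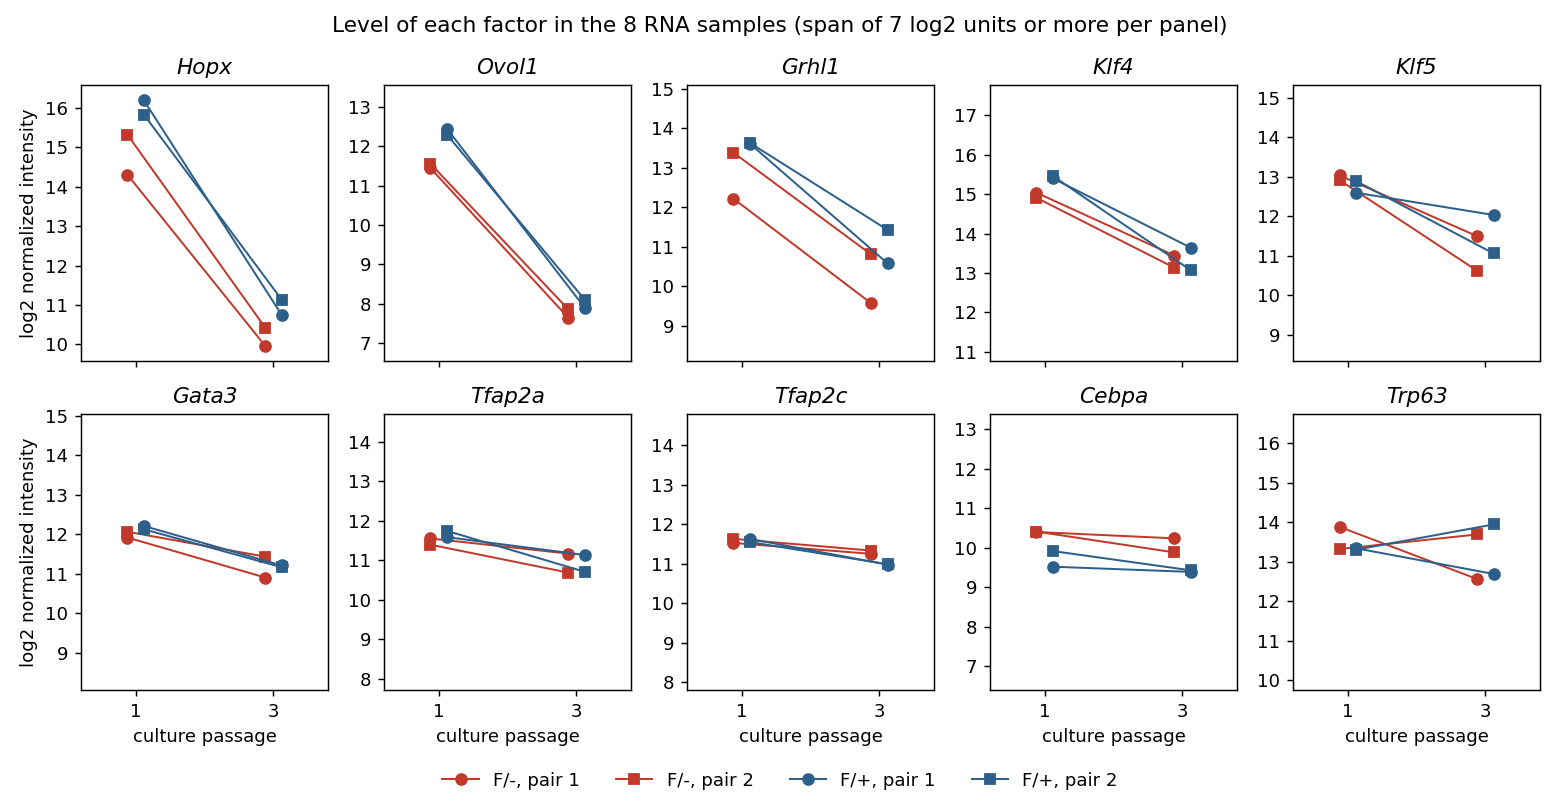
Normalized log2 intensity (vertical axis) of each factor at passages 1 and 3 (horizontal axis) in the 8 RNA samples, with F/- in red and F/+ in blue, circles for pair 1 and squares for pair 2, and a line joining the samples of a pair. Hopx falls from 16.18 and 15.82 to 10.75 and 11.14 in F/+, while the lines of Trp63 run in opposite directions in the 2 pairs.

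Hopx, an atypical homeodomain protein that promotes late keratinocyte differentiation, had the lowest change of the 10. Its normalized log2 intensity in F/+ was 16.18 and 15.82 in pairs 1 and 2 at passage 1 and 10.75 and 11.14 at passage 3. In F/- it was 14.30 and 15.31 at passage 1 and 9.97 and 10.43 at passage 3. Every late sample lay below every early sample of its genotype, with no overlap. The change in log2 intensity was -5.05 ± 0.53 (SD of the pairs, n = 2) in F/+, a 33.2-fold fall with an adjusted p of 0.0032. In F/- it was -4.61 ± 0.39, a 24.4-fold fall with an adjusted p of 0.00518. Only 0.0592% of all probes in F/+ and 0.107% in F/- changed by as much or more in that direction.

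Ovol1, a zinc finger repressor that lets committed progenitors stop dividing, followed Hopx in the size of its fall. In F/+ it read 12.44 and 12.29 at passage 1 and 7.91 and 8.11 at passage 3. The F/- samples read 11.44 and 11.55 and then 7.66 and 7.87. Again no late sample reached an early one of the same genotype. The fall was 20.5-fold in F/+ (log2 -4.35 ± 0.25, n = 2, adjusted p = 0.00011) and 13.3-fold in F/- (-3.73 ± 0.07, adjusted p = 0.000181). A second Ovol1 probe fell by 7.92-fold in F/+ and by 7.27-fold in F/- (adjusted p = 0.00167 and 0.00198), so the probes shared the direction and differed in size. With the mean of both probes the F/+ change was -3.67 on the log2 scale.

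Grhl1, a grainyhead factor that drives desmosomal cadherin genes, fell by about the same factor in both genotypes. Its F/+ intensities on the log2 scale were 13.61 and 13.63 at passage 1 and 10.58 and 11.43 at passage 3. Those in F/- were 12.22 and 13.38, then 9.57 and 10.80. The early samples all lay above the late ones. The change was -2.62 ± 0.59 in F/+ (6.14-fold, n = 2, adjusted p = 0.0433) and -2.61 ± 0.05 in F/- (6.12-fold, adjusted p = 0.046), close to the threshold of 0.05. Over 13 alternatives, each with 1 processing choice changed or 1 array left out, it was called in 9 of 13 in F/+ and in 7 of 13 in F/-. A brighter Grhl1 probe was left out because the scanner software flagged its spot on both early arrays. With such spots kept, an alternative chosen after seeing the data, it gave -2.14 in F/+ and -2.09 in F/- (adjusted p = 0.0229 and 0.0276).

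Klf4, needed for the skin barrier and made mainly in suprabasal cells, fell by 4.20-fold in F/+ and 3.20-fold in F/-. The F/+ samples stood at 15.39 and 15.46 at passage 1 and at 13.64 and 13.07 at passage 3. The F/- samples stood at 15.03 and 14.90, then at 13.44 and 13.14. Both genotypes showed a gap of over 1 log2 unit between passages. On the log2 scale the change was -2.07 ± 0.45 in F/+ (n = 2, adjusted p = 0.00291) and -1.68 ± 0.13 in F/- (adjusted p = 0.00706).

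Klf5, a related factor of proliferating basal cells, fell in F/- by 3.78-fold (log2 -1.92 ± 0.54, n = 2, adjusted p = 0.0213). Its F/- samples were at 13.03 and 12.92 at passage 1 and at 11.49 and 10.62 at passage 3. In F/+ they were at 12.60 and 12.89, then at 12.03 and 11.06. The F/+ change of -1.20 ± 0.90 missed the threshold (adjusted p = 0.0861), with the pairs at -0.56 and -1.83, and was called in 2 of 13 alternatives, one of them the mean of all probes of the gene (-1.02, adjusted p = 0.0435). A dimmer Klf5 probe changed by -0.84 in F/+ and -0.80 in F/- (adjusted p = 0.0525 and 0.0654) and was not well above background in 1 late F/- sample. The genotypes' changes differed by -0.72 on the log2 scale (F/- minus F/+), which did not pass the test of that difference (adjusted p = 0.819).

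**Figure D2:**
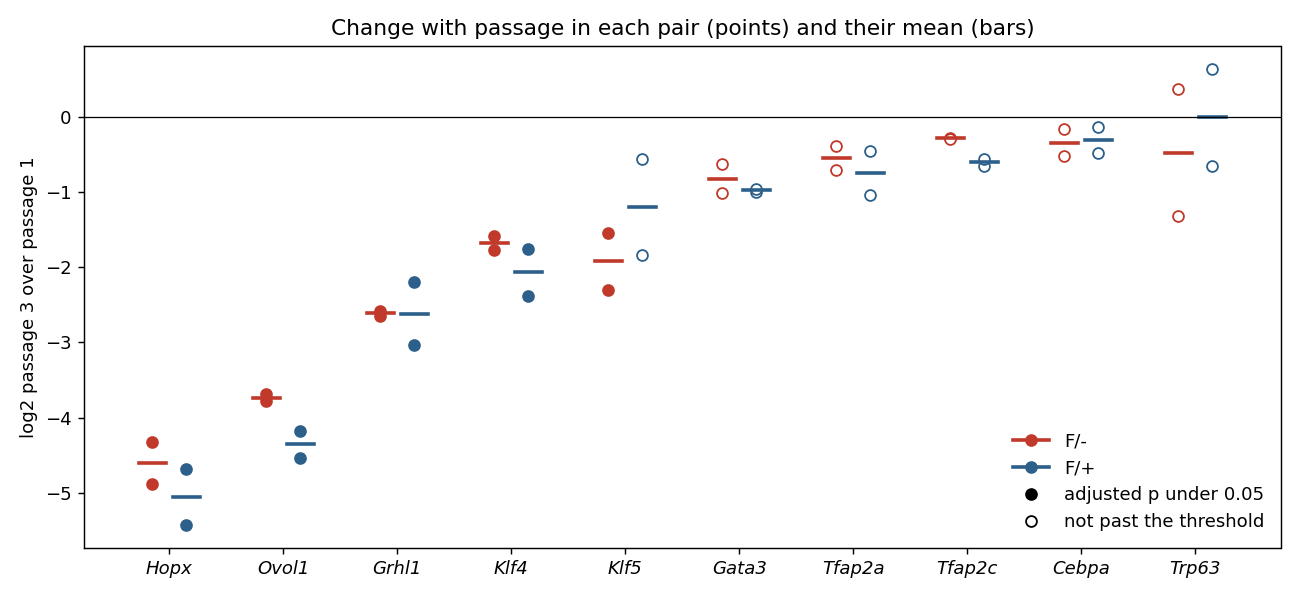
Log2 change from passage 1 to passage 3 (vertical axis) of each factor in each pair (points) and their mean (bars), with F/- in red and F/+ in blue and filled points where the adjusted p was under 0.05. Hopx, Ovol1, Grhl1 and Klf4 are filled in both genotypes, Klf5 in F/- alone, and the Trp63 points lie on both sides of 0.

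The factors of the early epidermal lineage showed smaller differences, none past the threshold. Trp63 stood at 13.34 and 13.31 in F/+ at passage 1 and at 12.69 and 13.95 at passage 3. In F/- it stood at 13.89 and 13.32, then at 12.56 and 13.69. Pair 1 was lower at passage 3 and pair 2 higher in both genotypes. The mean change was -0.01 ± 0.91 in F/+ and -0.48 ± 1.20 in F/- (n = 2, adjusted p = 0.995 and 0.556). Its other probes changed by -0.27 and 0.06 in F/+ and by -0.71 and -0.07 in F/-, none called. Trp63 was the only 1 of the 10 genes whose early and late samples overlapped, in each genotype: 9 of 10 lay lower at passage 3 without overlap, against 24.1% of all probes in F/+ and 26.8% in F/-.

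Gata3, which acts in barrier lipid synthesis and hair follicle fate, was at 12.20 and 12.12 in F/+ and then at 11.20 and 11.16. Its F/- samples were at 11.91 and 12.06, then at 10.90 and 11.43. The differences were -0.98 ± 0.03 in F/+ and -0.82 ± 0.27 in F/- (n = 2, adjusted p = 0.0857 and 0.138). These p-values come from the fit without pairing, while the SD is that of the pairs. With the pair number as a replicate block the differences passed, at adjusted p = 0.0262 and 0.0417.

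Tfap2a, the gene of the factor AP-2α, differed by -0.74 ± 0.41 in F/+ and -0.54 ± 0.23 in F/- (n = 2, adjusted p = 0.101 and 0.211). Its F/+ samples were at 11.58 and 11.74, then at 11.13 and 10.70, and its F/- samples at 11.55 and 11.39, then at 11.16 and 10.68. A second, dimmer Tfap2a probe differed by -0.14 and -0.28. Tfap2c, the gene of AP-2γ, was at 11.62 and 11.54 in F/+ and then at 10.97 and 10.98. In F/- it was at 11.52 and 11.63, then at 11.25 and 11.33. The Tfap2c difference was -0.61 ± 0.06 in F/+ and -0.29 ± 0.02 in F/- (n = 2, adjusted p = 0.0627 and 0.329), and the F/+ value passed in 3 of 13 alternatives: with the replicate block (adjusted p = 0.0226), with the mean of all probes of a gene (0.0452) and without the filter on dim probes (0.0475).

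Cebpa encodes C/EBPα, which couples commitment to exit from the cell cycle. It showed differences of -0.31 ± 0.25 in F/+ and -0.34 ± 0.26 in F/- (n = 2, adjusted p = 0.511 and 0.475). The samples were at 9.52 and 9.92, then at 9.39 and 9.43 in F/+, and at 10.40 and 10.41, then at 10.24 and 9.89 in F/-. Its second probe differed by -0.70 and -0.56 (adjusted p = 0.181 and 0.279).

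Hopx and Ovol1 were called in both genotypes in each of the 13 alternatives run for the passage comparisons. The calls of Klf4, Grhl1 and Klf5 were not made without the early array of pair 1 or without that of pair 2, where 2 of 10 genes were called in each genotype (adjusted p from 0.0916 to 0.27 for the lost calls). Without the late array of pair 1, Grhl1 was not called in either genotype (adjusted p = 0.059 and 0.0934), nor was it without normalization between arrays (0.0982 and 0.105). Its F/- call was also lost without background subtraction (adjusted p = 0.0536) and without the filter on dim probes (0.0538). Without the late array of pair 1, Klf5, Tfap2a and Gata3 were called in F/+ (adjusted p = 0.0117, 0.0455 and 0.0292, 6 genes in all). Without the late array of pair 2, Gata3 was called in F/- (adjusted p = 0.0406).

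A list of 30 further transcription factors of the epidermis was set beside the 10, and 29 of them were on the array. At passage 3, 4 of the 29 had fallen and 1 had risen in F/+, and 5 had fallen and 0 risen in F/-. Of all probes, 2.31% fell and 3.35% rose in F/+, and 2.11% fell and 2.98% rose in F/-. Prdm1, whose product BLIMP1 acts in terminal differentiation, changed by -2.57 ± 0.32 on the log2 scale in F/+ and by -1.89 ± 0.04 in F/- (n = 2, adjusted p = 0.00192 and 0.00674). Hr, Satb1 and Klf3 fell in both genotypes as well. The genes called in 1 genotype were Ovol2, the paralog of Ovol1, which rose by 1.01 in F/+ (adjusted p = 0.0191), and Tfap2e, of the AP-2 family, which changed by -2.45 in F/- (adjusted p = 0.00158). These genes were named after their values were seen. In the other genotype Ovol2 differed by 0.63 (adjusted p = 0.0931) and Tfap2e by -0.89 (adjusted p = 0.0574), and for neither did the difference between genotypes pass its own test (adjusted p = 0.823 and 0.819, unadjusted 0.018 and 0.000236). The median of the 29 was -0.53 in F/+ and -0.54 in F/-.

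The counts of the next lists stand beside 2.31% of all probes that fell in F/+ and 2.11% in F/-. The shares that rose were 3.35% and 2.98%. Of 10 genes known as targets of p63, 2 fell in each genotype: Satb1 and Cldn1 in F/+, and Satb1 and Jag2 in F/-, named after their values were seen. Their medians were -0.06 and -0.10. Among 10 basal keratinocyte genes 0 rose and 0 fell in either genotype, with medians of 0.27 and 0.05. Of 16 suprabasal and cornified genes, which build the barrier, 10 fell in F/+ and 9 in F/- and 0 rose, with medians of -3.61 and -2.56. Ivl and Tgm3 lay above 0 in both genotypes without passing, at 0.85 and 0.31 in F/+ and 0.65 and 0.21 in F/-. Cnfn, a cornified envelope protein named after its values were seen, changed by -6.76 ± 0.04 in F/+ and by -6.91 ± 0.18 in F/- (n = 2, adjusted p = 0.000176 and 0.000181). Over the samples, the summed normalized intensity of the 16 ranged from 284542 to 357511 at passage 1 and from 10950 to 17462 at passage 3 in F/+. In F/- the sum ran from 162223 to 196844 and then from 7048 to 7712.

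**Figure D3:**
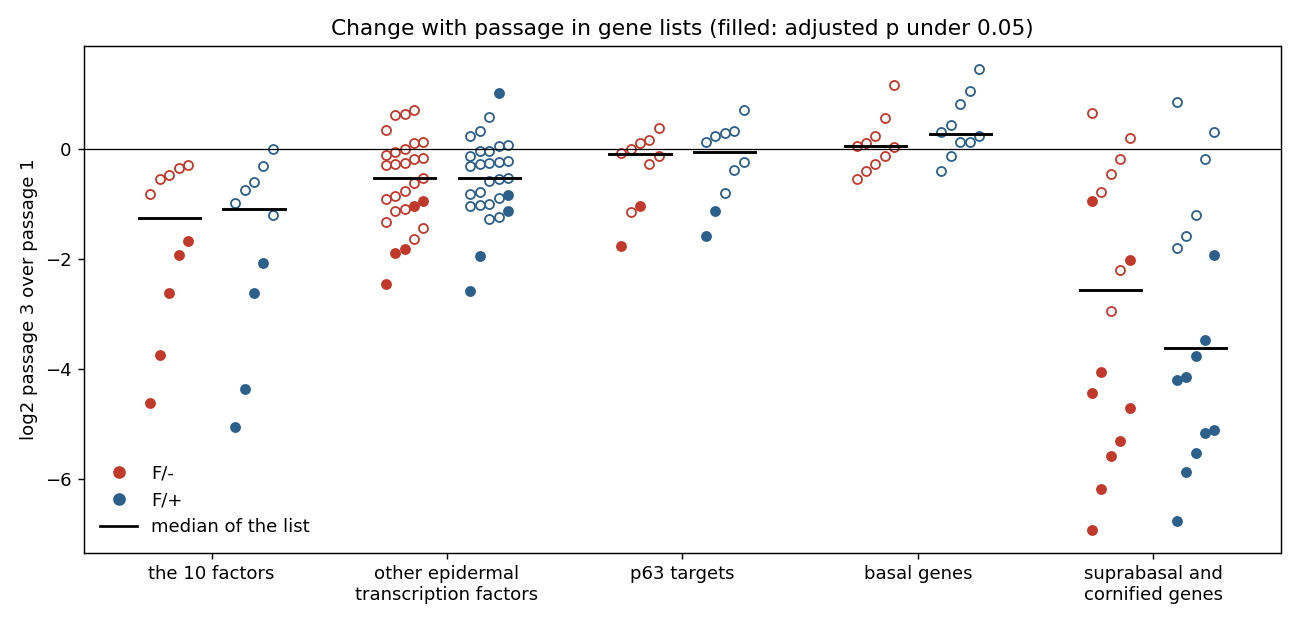
Log2 change from passage 1 to passage 3 (vertical axis) of each gene of 5 lists (horizontal axis), with F/- in red and F/+ in blue, filled points where the adjusted p was under 0.05 and a black bar at the list's median. The medians are -1.09 and -1.25 for the 10 factors and -3.61 and -2.56 for suprabasal and cornified genes, while those of p63 targets and basal genes lie near 0.

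Markers of other cells moved with passage too, and their part in the changes of the 10 factors was not tested. Their counts stand beside 2.31% of all probes that fell and 3.35% that rose in F/+, and 2.11% and 2.98% in F/-. The summed leukocyte intensity ranged from 22393 to 24896 at passage 1 and from 3507 to 3551 at passage 3 in F/+, and from 24115 to 35559 and then 8588 to 13361 in F/-. Of the 10 leukocyte markers, 4 fell in F/+ and 1 in F/-. Melanocyte markers summed to between 73232 and 84656 and then 25820 and 28653 in F/+, and to between 69742 and 71343 and then 27278 and 27718 in F/-. Here 4 of 8 markers fell in F/+ and 5 of 8 in F/-. For endothelial markers 1 of 7 (Kdr, named after its values were seen) fell in each genotype, and the sums went from between 1873 and 1948 to between 832 and 874 in F/+ and from between 1593 and 1856 to between 945 and 957 in F/-. Fibroblast sums were between 1729 and 2471 and then 2340 and 3745 in F/+, and between 2301 and 2352 and then 4917 and 6811 in F/-, with 1 of 10 markers (Col5a2) risen in each genotype. Keratinocyte marker sums lay between 658548 and 717626 and then 696312 and 749258 in F/+, and between 526585 and 535144 and then 529969 and 548381 in F/-, with 0 of 8 called.

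Between the genotypes, with both passages averaged, 2 of the 10 genes passed limma's test: Cebpa was higher and Ovol1 lower in F/- than in F/+, against 5.85% of all probes called higher and 2.99% called lower. At passage 1 alone 0 of 10 genes and 0% of all probes passed, while 5 of 10 genes had an unadjusted p under 0.05 against 20.6% of all probes. With a background offset of 0, 69 probes passed at passage 1, with 0 of the 10 genes among them. Passage 3 alone also gave 0 of 10 and 0% of all probes, with 5 of 10 and 20% at an unadjusted p under 0.05. The median log2 ratio of F/- over F/+ over the 10 genes was -0.11 with both passages averaged, beside -0.01 over all probes. How the ratios were centred mattered: with median centring in place of loess, 1 factor was called higher and 5 lower, and the share of higher among all called probes was 23.1% in place of 66.2%. Those lower were Ovol1, Hopx, Grhl1, Klf4 and Klf5. Klf4 and Klf5 passed in this alternative alone (adjusted p = 0.0229 and 0.0361). Over the alternatives their mean ratios reached -0.74 and -0.40, beside -0.26 and -0.13 in the reported setting.

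Cebpa had a log2 ratio of 0.88 and 0.49 in pairs 1 and 2 at passage 1 and of 0.85 and 0.45 at passage 3. It was above 0 on 4 of 4 arrays, as were 19% of all probes. The mean was 0.67 ± 0.23 (SD, n = 4 arrays), or 1.59-fold higher in F/-, with an adjusted p of 0.0336. Here and for the genotype means below, the SD over 4 arrays includes any difference between passages. The p-values come from a fit with passage as group and measure the spread within passages, not that SD. The second Cebpa probe gave 0.44 ± 0.19 (adjusted p = 0.0483).

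Ovol1 gave -0.998 and -0.74 at passage 1 and -0.25 and -0.24 at passage 3, below 0 on 4 of 4 arrays, as were 19.9% of all probes. Its mean was -0.56 ± 0.37 (n = 4 arrays), or 1.47-fold lower in F/-, with an adjusted p of 0.0262. The second Ovol1 probe did not share this: it gave -0.05 ± 0.16 with an adjusted p of 0.698. With the mean of both probes Ovol1 was at -0.31 and missed the threshold (adjusted p = 0.0526).

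Hopx was also below 0 on 4 of 4 arrays, at -1.88 and -0.51 at passage 1 and -0.78 and -0.71 at passage 3. The early array of pair 1 stood lowest. The mean of -0.97 ± 0.62 (n = 4 arrays) was 1.96-fold lower in F/- and missed the threshold (adjusted p = 0.0673). Grhl1 likewise lay below 0 on 4 of 4 arrays, at -1.39, -0.25, -1.01 and -0.62 in the same order. Its mean of -0.82 ± 0.49 missed the threshold too (adjusted p = 0.0738). With the pair number as a replicate block both passed, Grhl1 at an adjusted p of 0.0346 and Hopx at 0.0468, and 4 of 10 genes were called. Both also passed with a background offset of 0 (0.0368 and 0.0322) and with median centring (0.0461 and 0.04). At passage 1 alone, the Hopx ratio was -1.19, and -0.51 without the array of pair 1. The brighter Grhl1 probe, flagged on both early arrays and left out of the test, gave -1.03, -0.13, -0.44 and -0.61 in the order above.

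**Figure D4:**
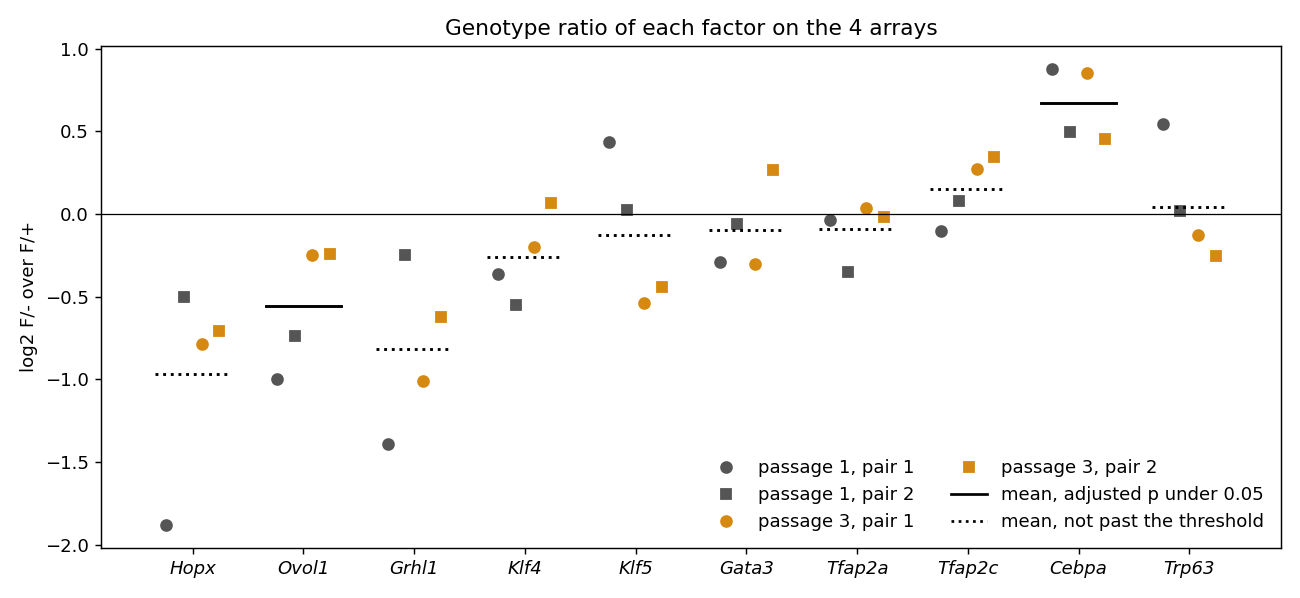
Log2 ratio of F/- over F/+ (vertical axis) of each factor on the 4 arrays, with passage 1 in grey, passage 3 in orange, circles for pair 1 and squares for pair 2, and the mean as a solid line where the adjusted p was under 0.05 and a dotted line elsewhere. Hopx, Ovol1 and Grhl1 lie below 0 and Cebpa above 0 on 4 of 4 arrays, while Klf5 and Trp63 lie above 0 at passage 1 and below 0 at passage 3 (with median centring their passage 1 means were -0.075 and -0.097).

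Klf4 gave ratios of -0.36 and -0.55 at passage 1 and -0.20 and 0.07 at passage 3, with a mean of -0.26 ± 0.26 (n = 4 arrays, adjusted p = 0.0938). Klf5 gave 0.44 and 0.02, then -0.54 and -0.44. Trp63 gave 0.54 and 0.02, then -0.13 and -0.25. Both genes thus had ratios above 0 at passage 1 and below 0 at passage 3, though with median centring their means at passage 1 were below 0 too (-0.075 for Klf5 and -0.097 for Trp63). The differences between passages were -0.72 for Klf5 and -0.47 for Trp63 and did not pass (adjusted p = 0.819 and 0.864). In that test 0 of the 10 genes and 0% of all probes passed, and 4 of 10 had an unadjusted p under 0.05 against 5.83% of all probes. These 4 were Ovol1 (0.62, unadjusted p = 0.00595), Klf5 (0.00911), Tfap2c (0.32, 0.0461) and Klf4 (0.39, 0.0465). Trp63 was not among them (unadjusted p = 0.0692). The other probes of Ovol1 and Klf5 gave 0.12 and 0.04 (unadjusted p = 0.458 and 0.785).

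A dimmer Trp63 probe was called higher in F/- with both passages averaged, at 0.54 ± 0.34 (n = 4 arrays, adjusted p = 0.0464). The third gave 0.16 ± 0.09 (adjusted p = 0.141) and the brightest 0.04 ± 0.35 (adjusted p = 0.814). In this average the means of the 3 probes lay above 0 and differed in size and in the call. The brightest probe was above 0 on only 2 of 4 arrays, and with median centring its mean was -0.32. At passage 3 the brightest probe stood at -0.19, while the others stood at 0.32 and 0.09. The third was the dimmest, with a mean log2 intensity of 6.58 in F/- and 6.43 in F/+. The means of Gata3, Tfap2a and Tfap2c were -0.10, -0.09 and 0.15 (adjusted p = 0.617, 0.463 and 0.183). Tfap2c stood at 0.27 and 0.35 at passage 3 and at -0.10 and 0.08 at passage 1.

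The calls of Cebpa and Ovol1 rest on 4 arrays that hold 2 mice of each genotype. With the arrays of each pair averaged first, neither passed (adjusted p = 0.0619 and 0.0513). Neither was called without the early array of pair 1, without that of pair 2 or without the late array of pair 1 (adjusted p from 0.0718 to 0.161).

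Other lists gave these counts with both passages averaged, beside 5.85% of all probes called higher in F/- and 2.99% called lower. Of the 29 other transcription factors 2 were lower in F/- and 0 higher: Barx2, a homeobox factor, at -1.05 ± 0.42, and Satb1, a chromatin organiser under p63, at -0.38 ± 0.14 (n = 4 arrays, adjusted p = 0.0317 and 0.0448). Of the p63 targets 4 of 10 were lower and 0 higher: Krt14, Krt5, Perp and Satb1, at -0.66, -0.60, -0.55 and -0.38. Of the 10 basal genes 2 were higher, Lamb3 at 1.33 and Itgb1 at 0.67, and 4 were lower, with Krt14 and Krt5 among them. Of the 16 suprabasal and cornified genes 5 were lower and 0 higher, led by Krtdap at -1.47, Sbsn at -1.19, Lor at -0.84 and Tgm1 at -0.79. Ivl went the other way without passing, at 0.35 and above 0 on 4 of 4 arrays (adjusted p = 0.096). The medians of these 4 lists were -0.10, -0.16, 0.23 and -0.60.

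Some cell type markers were called between the genotypes as well, beside 5.85% of all probes called higher and 2.99% called lower. Their part in the ratios of the 10 factors was not tested. Among 8 keratinocyte markers 3 were lower in F/- (Krt14, Krt5 and Perp, which are also on the p63 target list), with a list median of -0.18. The markers not called went both ways: Sfn (0.47), Dsg3 (0.26) and Cdh1 (0.08) lay above 0, and Pkp1 (-0.21) and Dsp (-0.14) below. Of the leukocyte markers 1 of 10 was higher in F/-, Lyz2 at 1.27 ± 1.14, and of the fibroblast markers 1 of 10, Col5a2 at 0.79 ± 0.42 (n = 4 arrays, adjusted p = 0.0258 and 0.0353). Melanocyte markers gave 0 of 8 and endothelial markers 0 of 7, with Mitf at -0.48, Tyrp1 at 0.44, Esam at 0.44 and Kdr at -0.16 the farthest from 0.

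For the 3 factors with the largest mean genotype ratio, the genes most alike over the 8 RNA samples were found by the root mean square difference of centred log2 intensities. Nearest to Hopx were Cdsn (0.286), Klk7 (0.307) and Tmprss4 (0.314), nearest to Grhl1 were Ankrd22 (0.311), Lmo7 (0.344) and Lipm (0.345), and nearest to Cebpa were Spag9 (0.0874), Stk40 (0.0985) and Nuak2 (0.102). Cdsn, which encodes corneodesmosin of the cornified layer, changed with passage by -5.15 in F/+ and -4.70 in F/-, beside the -5.05 and -4.61 of Hopx. Spag9 had a mean genotype ratio of 0.57, beside 0.67 for Cebpa. The 8 samples share 4 arrays, and likeness is given as a description.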

How the data were processed

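Per the file headers, the deposited files hold raw intensity (mean signal and median background) of each channel and the scanner software's log10 ratio; the submitters' processing notes name Agilent Feature Extraction 9.1.3.1. The authors' value table equals that log10 ratio with the sign turned (largest gap 4.96e-06; medians -0.00223, 0, 0 and -0.000733). All arrays shared 1 slide and 1 scan.

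Intensities were corrected with normexp (offset 50) and normalized by loess in limma 3.58.1 (R 4.3.3), without flagged spots. A probe was kept if 2 or more arrays had it well above background in Cy3 or Cy5 and no more than 1 array lacked it. Ratios were fitted with lmFit and eBayes (residual df 2, prior 2.81), and passages, after A-quantile normalization, with a separate-channel fit (intraspot correlation 0.742). Tests were two-sided, with Benjamini-Hochberg adjustment over all probes, and were tested on simulated data.

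Members and lists were chosen with earlier results of these data known. All members are named; of each other list, up to 4 genes called over both passages with the largest ratios (where none, the 2 largest). Of 41174 probes, 8455 kept the name in the files and the rest were named through RefSeq's GRCm38.p6 table. On the late arrays the source name of channel 2 gives the first passage; title, description and passage entry give 3 and were followed. Deviations of same-numbered arrays correlated at -0.000464 for ratios, 0.25 for F/- and 0.0332 for F/+. The alternatives varied background, filters, flagged spots, normalization, probes, single arrays and the pair block.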

Additional observations from a re-analysis of the deposited data

How the results depend on the processing

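The number of members called for F/- over F/+ with both passages averaged, 2 in the reported setting, was 4 with a background offset of 0, 4 with the pair number as a replicate block, 6 with median centring, 1 with the mean of all probes of a gene and 0 with the arrays of each pair averaged first; leaving out 1 array gave 0 to 2. Leaving out 1 array gave 2 to 6 members for late over early in F/+ and 2 to 6 in F/-. A fit without 1 array leaves 1 array at a passage, which is assumed to vary like the others, and for passages it keeps the intraspot correlation of all 4 arrays. The replicate block changed the calls given in the text (Grhl1 and Hopx between genotypes, Gata3 and Tfap2c with passage) and no other member's call. The counts of 0 at passage 1, passage 3 and for late minus early were 0 in the 13 alternatives run for each. Of single-gene values under the alternatives fixed at the start, 661 kept direction and side of the threshold, 18 newly passed, 25 no longer passed and 26 changed sign, none of the last called; under the one chosen after seeing the data, 60 of 60 kept both. The cause of these shifts was not tested. Signs turned with median centring for Trp63 at passage 1 (-0.097), Klf5 at passage 1 (-0.075), Tfap2a at passage 3 (-0.20), and Trp63 (-0.32) and Tfap2c (-0.051) with passages averaged. They turned with the scanner software ratio for Tfap2a at passage 3 (-0.011), and for Grhl1 (-0.037) and Cebpa (0.014) in late minus early. Offset 0 turned Grhl1 in late minus early (-0.021), and the mean of all probes turned Trp63 at passage 3 (0.075) and Cebpa in late minus early (0.053). Without 1 array, late minus early ranged from -0.57 to 0.58 for Grhl1, from -0.24 to 1.13 for Hopx, from -0.23 to 0.16 for Cebpa and from -0.13 to 0.44 for Gata3. At passage 1 Tfap2c ranged from -0.10 to 0.081. Ranges at passage 3 were -0.20 to 0.066 for Klf4, -0.020 to 0.036 for Tfap2a and -0.31 to 0.27 for Gata3. With passages averaged, Gata3 ranged up to 0.046 and Trp63 from -0.087 to 0.18. Trp63 with passage ranged from -0.63 to 0.62 in F/+ and from -1.04 to 0.089 in F/-. Without normalization between arrays the median passage change of all probes was -0.13 in F/+ and -0.15 in F/-. With a background offset of 0 the passage change of Ovol1 was -4.68 in F/+ and -4.10 in F/-.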
